A study of Mus musculus with 13 samples.

Results

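The Kcnb2 and Ptpn14 loci are 2 windows of mouse chromosome 1 in which chromatin accessibility was counted region by region in blood stem cells. The Kcnb2 window spans 15200000 to 15850000 and the Ptpn14 window 191500000 to 191750000 in the mm9 build. Every accessible region with its midpoint in a window is a member, which gave 19 regions in the Kcnb2 window and 33 in the Ptpn14 window, 52 of 115295 regions in all. They are called K1 to K19 and P1 to P33 here, in order along the chromosome. The loci were chosen with their measured counts in all 3 groups in view, so the differences inside the windows are a description. Where members are counted past the threshold of the fit over all regions, that count too describes values the choice had used, and it is no test of the loci. Flanks of the same width on both sides of each window took no part in that choice and were tested.

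Kcnb2 encodes Kv2.2, a pore-forming subunit of voltage-gated potassium channels that repolarise excitable cells and are best known from neurons. Ptpn14 encodes a cytoplasmic tyrosine phosphatase with a FERM domain, which binds the Hippo pathway effector YAP and restrains its activity. Promoters and distal regulatory elements of genes lie in chromatin that a transposase can enter, and ATAC-seq counts the resulting fragments, so that a region with more counts was open more often or in more cells. In bulk samples these 2 cases cannot be told apart.

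HSCs (haematopoietic stem cells) were donor-derived, CD45.2+, LSK Flt3-CD150+CD48-Gata1-, from bone marrow of recipients of 1 transplanted Vwf+ HSC, in C57BL/6 mice. Recipients were classed by the lineages they had restored over 16 weeks, and 500 cells went into each replicate. PLT-HSC came from P-restricted recipients (n = 3), PEM-HSC from PEM-restricted recipients (n = 6) and MUL-HSC from multilineage recipients (n = 4). HSCs of 1 recipient thus descend from 1 cell, and the labels do not say whether replicates came from separate recipients, so spreads and p-values measure only differences between these samples, which may be technical.

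Library totals were 2378024 to 3307889 counts in PLT-HSC, 1276962 to 3851165 in PEM-HSC and 1307222 to 2831520 in MUL-HSC. On the first principal component of all tested regions, MUL-HSC replicate 3 scored -11.9, beside -5.28 to 66.2 in PEM-HSC, while the other MUL-HSC libraries scored -111 to -55.1. Levels are CPM, a region's count relative to the library's counts in tested regions after TMM scaling (a factor per library that evens out its composition). An annotation of the mm9 build was not used here, so no exon, intron or promoter is assigned to a region, and the cell type was not checked against marker genes. In RefSeq's order of named protein-coding genes (GRCm38.p6), Kcnb2 lies between Trpa1 and Terf1, and Ptpn14 between Cenpf and Smyd2. Whether regions near the window ends belong to those neighbours was not determined.

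Of the 2 genes, Ptpn14 has an entry in the RefSeq promoter table of build GRCm38.p6. The 250 bases before its annotated start, on the plus strand at chr1:189728018-189728267 of that build, are shown because they are the start of a gene that names a locus. Capitals mark the dinucleotide CG, which reads the same on both strands.

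Ptpn14 upstream: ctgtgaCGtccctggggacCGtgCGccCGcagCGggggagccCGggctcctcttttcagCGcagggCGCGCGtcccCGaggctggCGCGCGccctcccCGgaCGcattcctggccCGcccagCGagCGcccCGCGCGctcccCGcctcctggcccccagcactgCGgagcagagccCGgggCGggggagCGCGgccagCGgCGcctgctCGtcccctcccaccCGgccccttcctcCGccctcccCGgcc

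This stretch holds 34 CG dinucleotides and is 80.8% G or C. The median over 32851 promoters of the table was 6 CG, and 3.53% of them hold at least 34. Its place among P1 to P33 was not determined, since no positions were converted between the 2 builds.

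Summed over its 19 regions, the Kcnb2 window was more accessible in both restricted groups than in MUL-HSC. The sum was 157, 200.4 and 135 CPM in PLT-HSC, had a lowest, median and highest value of 123, 147 and 174 CPM in PEM-HSC, and was 77.0, 71.9, 106 and 93.0 CPM in MUL-HSC. Every PLT-HSC and PEM-HSC library lay above every MUL-HSC library, and MUL-HSC replicate 3 was the highest of its group. Group means were 164 ± 33.2 CPM in PLT-HSC, 148 ± 20.5 CPM in PEM-HSC and 87.0 ± 15.5 CPM in MUL-HSC (SD, n = 3, 6 and 4). On the log2 scale, PLT-HSC exceeded MUL-HSC by 0.91 ± 0.21 and PEM-HSC exceeded MUL-HSC by 0.78 ± 0.15 (SE). PLT-HSC and PEM-HSC overlapped and differed by 0.14 ± 0.18. Both comparisons share the MUL-HSC libraries.

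**Figure D1:**
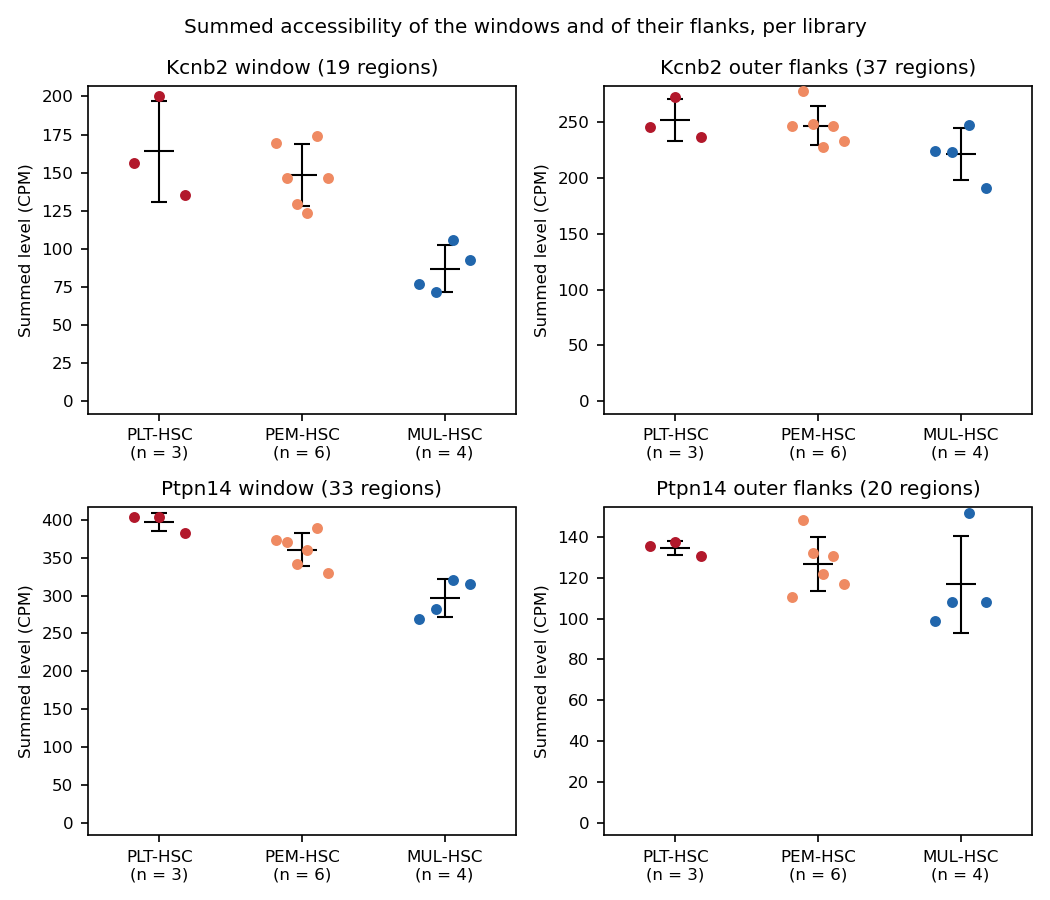
Summed level in CPM of each window (left) and of its outer flanks (right), for PLT-HSC, PEM-HSC and MUL-HSC. Points are libraries, bars the mean ± SD; in both windows every PLT-HSC and PEM-HSC point lies above every MUL-HSC point, whereas in the flanks the groups overlap.

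The counts behind these sums were 410 to 481 in PLT-HSC, 171 to 607 in PEM-HSC and 87 to 244 in MUL-HSC. The 95% counting interval (exact Poisson) of MUL-HSC replicate 2, the library with the fewest counts in the window, was 57.6 to 88.7 CPM. That of PEM-HSC replicate 4, the lowest of the restricted groups, was 112 to 135 CPM. The interval of MUL-HSC replicate 3, the highest of its group, was 92.0 to 121 CPM and overlapped that of PEM-HSC replicate 4. Such intervals cover counting error only.

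The Kcnb2 sum joins 1 strong region whose level overlapped across the 3 groups with many weaker ones. K18 (15795361 to 15796485) was the strongest member, with 47.9 CPM per kb. It had 45.6, 53.3 and 54.4 CPM in PLT-HSC, 40.3 to 65.0 CPM (median 55.4) in PEM-HSC and 55.2, 52.1, 59.2 and 55.7 CPM in MUL-HSC. Its log2 fold changes were -0.13 ± 0.13 for PLT-HSC against MUL-HSC and -0.02 ± 0.12 for PEM-HSC against MUL-HSC (SE). K18 therefore made up 26.6% to 40.2% of the window's counts in PLT-HSC and 27.5% to 46.9% in PEM-HSC, against 55.9% to 72.4% in MUL-HSC. The 18 other regions summed to 113 ± 33.2 CPM in PLT-HSC and 94.1 ± 19.3 CPM in PEM-HSC, against 31.4 ± 12.8 CPM in MUL-HSC (SD). This is a log2 difference of 1.90 ± 0.39 for PLT-HSC and 1.65 ± 0.33 for PEM-HSC (SE), 3.72 and 3.13-fold.

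**Figure D2:**
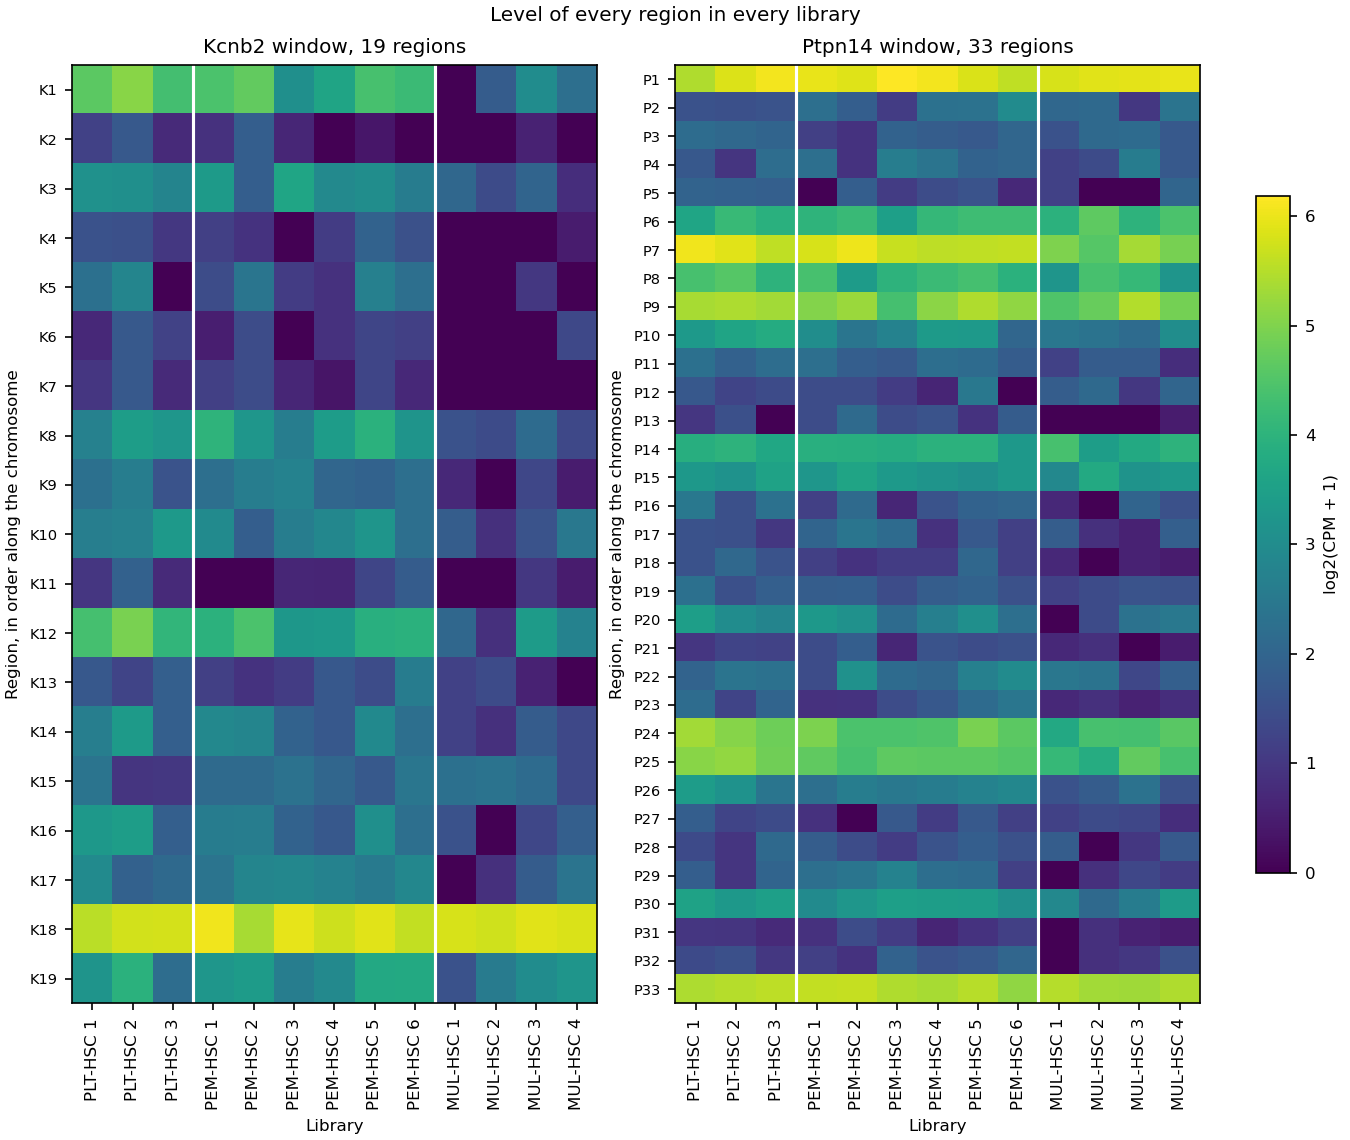
Level of all 52 regions as log2(CPM + 1), with a column per library (PLT-HSC, PEM-HSC, MUL-HSC, split by white lines) and a row per region along the chromosome. In the Kcnb2 window most rows, though not K15 and K18, darken in MUL-HSC, while in the Ptpn14 window P1, P6, P14, P15 and P33 show no step between groups. Colour runs from dark (0) to yellow (high).

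Region by region, 17 of 19 Kcnb2 members had a higher mean CPM in PLT-HSC than in MUL-HSC, and 18 of 19 in PEM-HSC than in MUL-HSC. The same held for 50.1% and 49.6% of all 115295 regions. Of the 19, 11 had enough counts to be tested in the fit over all regions, with median log2 fold changes of 1.75 (PLT-HSC against MUL-HSC) and 1.35 (PEM-HSC against MUL-HSC), against 0.01 for both over all tested regions. In PLT-HSC against MUL-HSC, 5 of the 11 passed the threshold (edgeR quasi-likelihood test, adjusted p under 0.05 over all regions), all higher, where 1.13% of all tested regions were called higher and 1.28% lower. In PEM-HSC against MUL-HSC, 3 of the 11 passed, all higher, where 0.242% were called higher and 0.589% lower. All libraries of PLT-HSC lay above all of MUL-HSC in 7 of the 11, against 6.67% of tested regions, and wholly below in 0, against 6.56%. All libraries of PEM-HSC lay above all of MUL-HSC in 4 of the 11, against 1.51%, and below in 0, against 2.08%. These shares describe a locus chosen on the same counts.

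K1 (15276289 to 15277667), the first region of the window and at 1378 bp its widest, had the largest PLT-HSC against MUL-HSC fold change of those called. It held 23.8, 32.7 and 19.1 CPM in PLT-HSC, 7.45, 18.8 and 24.9 CPM as lowest, median and highest in PEM-HSC, and 0, 2.48, 7.02 and 3.81 CPM in MUL-HSC. Both restricted groups lay wholly above MUL-HSC, where replicate 1 had no count. The log2 fold change was 2.77 ± 0.50 for PLT-HSC and 2.19 ± 0.48 for PEM-HSC against MUL-HSC (SE). The PEM-HSC call held in 5 of 21 alternative fits, where the PLT-HSC call held in 18.

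K12 (15668935 to 15669490) came next in PLT-HSC against MUL-HSC, with 19.5, 29.9 and 15.8 CPM in PLT-HSC, 8.60 to 20.6 CPM (median 14.2) in PEM-HSC and 3.21, 0.827, 9.53 and 5.72 CPM in MUL-HSC. All PLT-HSC libraries exceeded all MUL-HSC libraries, whereas PEM-HSC reached down to the level of MUL-HSC replicate 3. Its log2 fold change was 2.005 ± 0.38 for PLT-HSC, past the threshold, and 1.30 ± 0.36 for PEM-HSC, not past it. Whether these 2 fold changes differ is the contrast of PLT-HSC with PEM-HSC, whose log2 fold change of 0.70 ± 0.30 did not pass.

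K8 (15567743 to 15568330) averaged 7.97 ± 2.20 CPM in PLT-HSC and 10.2 ± 3.86 CPM in PEM-HSC, against 2.15 ± 0.920 CPM in MUL-HSC (SD). It had 5.53, 9.81 and 8.57 CPM in PLT-HSC, 5.16 to 15.2 CPM (median 9.10) in PEM-HSC and 1.93, 1.65, 3.51 and 1.53 CPM in MUL-HSC. No restricted library came down to the highest MUL-HSC value. Its log2 fold changes against MUL-HSC were 1.83 ± 0.43 in PLT-HSC and 2.25 ± 0.38 in PEM-HSC, both past the threshold.

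K3 (15369833 to 15370521) had 7.81, 7.47 and 5.94 CPM in PLT-HSC, 2.58 to 11.5 CPM (median 6.83) in PEM-HSC and 3.21, 1.65, 3.01 and 0.763 CPM in MUL-HSC. The lowest PEM-HSC library fell among the MUL-HSC ones, and both log2 fold changes, 1.75 ± 0.45 for PLT-HSC and 1.78 ± 0.41 for PEM-HSC, passed. K16 (15789088 to 15789704) had 8.79, 9.81 and 2.64 CPM in PLT-HSC, 2.26 to 7.45 CPM (median 4.41) in PEM-HSC and 1.93, 0, 1.505 and 2.67 CPM in MUL-HSC. PLT-HSC replicate 3 was within the MUL-HSC range here. The log2 fold change of K16 passed for PLT-HSC (1.98 ± 0.55) and not for PEM-HSC (1.35 ± 0.52). Of 21 alternative fits, the PLT-HSC call held in 6 for K16, 11 for K3, 14 for K8 and 19 for K12, and the PEM-HSC call in 11 for K3 and 19 for K8.

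**Figure D3:**
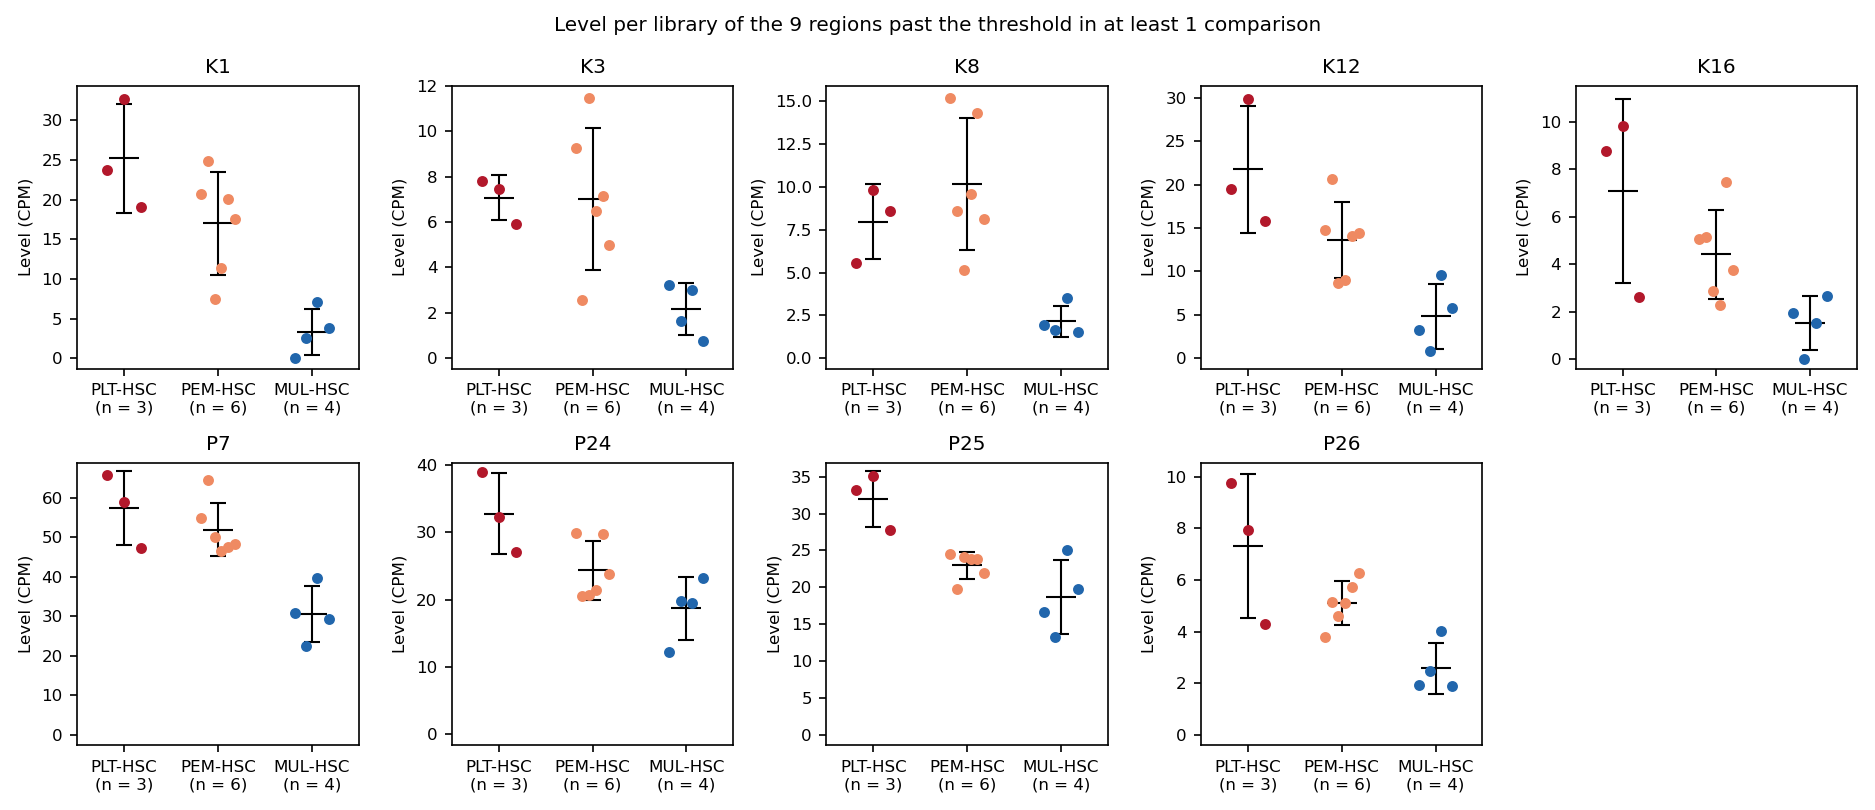
Level in CPM of the 9 regions past the threshold in at least 1 comparison, per library, with the mean ± SD of PLT-HSC (n = 3), PEM-HSC (n = 6) and MUL-HSC (n = 4). K1 and K8 separate both restricted groups from MUL-HSC, as does P7, whereas in K16 all 3 groups overlap.

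The 6 other tested Kcnb2 regions did not pass. K9, K10 and K14 had log2 fold changes of 2.32 ± 0.71, 1.27 ± 0.43 and 1.74 ± 0.54 for PLT-HSC, and 2.44 ± 0.65, 1.07 ± 0.39 and 1.49 ± 0.50 for PEM-HSC, against MUL-HSC. K9 rests on 5 counts over the 4 MUL-HSC libraries. K17 and K19 had 0.98 ± 0.52 and 0.51 ± 0.43 for PLT-HSC and 1.29 ± 0.46 and 0.61 ± 0.38 for PEM-HSC. K18 completes the set.

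The 8 members with too few counts for the fit, K2, K4 to K7, K11, K13 and K15, held 19 to 85 counts each over all 13 libraries. K7 (15561016 to 15561215) had 10 counts in PLT-HSC, 13 in PEM-HSC and 0 in MUL-HSC, at least 2.99-fold higher in PLT-HSC and 2.30-fold higher in PEM-HSC when MUL-HSC is set at a floor of 3 counts over the group. The 95% counting intervals of these ratios begin lower, at 2.01 and 1.62. K5 had 25 counts in PLT-HSC, 39 in PEM-HSC and 2 in MUL-HSC. Its depth-corrected ratios were 11.2 (95% counting interval 2.79 to 97.5) and 10.4 (2.68 to 88.6). PLT-HSC replicate 3 had no count in K5, and MUL-HSC replicate 3 held both MUL-HSC counts. K4 had 13, 21 and 1, ratios of 11.6 (1.75 to 495) and 11.2 (1.79 to 461). K15 went the other way for PLT-HSC, with 2.05 ± 1.89 CPM in PLT-HSC and 3.44 ± 0.727 CPM in PEM-HSC, against 3.26 ± 1.18 CPM in MUL-HSC (SD). K2, K4, K5, K6, K7 and K11 thus held 0 to 4 counts each over the MUL-HSC libraries. For PLT-HSC and PEM-HSC in turn, the ratios to MUL-HSC were 2.46 (0.73 to 10.6) and 1.73 (0.53 to 7.27) in K6. They were 3.28 (0.87 to 18.3) and 2.12 (0.57 to 11.7) in K11, all with intervals spanning 1. K2 had 9.85 (1.43 to 424) and 3.72 (0.48 to 168), and K13 had 3.22 (1.15 to 11.1) and 2.97 (1.13 to 9.87). All these intervals pool the counts of a group's libraries. They cover counting error only, leave out the spread between libraries, and are no test of a member.

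The Ptpn14 window differed in the same direction but by less. Its 33 regions summed to 404, 404 and 383 CPM in PLT-HSC, 329 to 389.6 CPM (median 366) in PEM-HSC and 269, 283, 321 and 315 CPM in MUL-HSC. Both restricted groups lay wholly above MUL-HSC, whose replicate 3 was again the highest of its group. Means were 397 ± 12.3 CPM in PLT-HSC, 361 ± 22.2 CPM in PEM-HSC and 297 ± 25.1 CPM in MUL-HSC (SD). The log2 difference from MUL-HSC was 0.42 ± 0.07 for PLT-HSC and 0.28 ± 0.07 for PEM-HSC, and PLT-HSC exceeded PEM-HSC by 0.14 ± 0.04 with overlapping libraries (SE).

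Among its members, 26 of 33 had a higher mean in PLT-HSC and 28 of 33 in PEM-HSC than in MUL-HSC. The same held for 50.1% and 49.6% of all regions. The 15 tested ones had median log2 fold changes of 0.56 and 0.37, against 0.01 for both over all tested regions. In PLT-HSC against MUL-HSC 4 of the 15 passed the threshold, all higher, where 1.13% of all tested regions were called higher and 1.28% lower. In PEM-HSC against MUL-HSC 1 passed, also higher, where 0.242% were called higher and 0.589% lower. Libraries of PLT-HSC lay wholly above MUL-HSC in 6 of the 15 and those of PEM-HSC in 1, against 6.67% and 1.51% of tested regions. They lay wholly below in 0 and 0, against 6.56% and 2.08%. These shares too describe a locus chosen on the same counts.

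P7 (191551129 to 191552860) was the widest member at 1731 bp and the only one past the threshold in both restricted groups. The 29 regions past it in no comparison also summed higher, with log2 differences from MUL-HSC of 0.24 ± 0.06 for PLT-HSC and 0.18 ± 0.06 for PEM-HSC (SE), the PEM-HSC libraries overlapping MUL-HSC. It had 65.7, 58.9 and 47.2 CPM in PLT-HSC, 46.4 to 64.4 CPM (median 49.0) in PEM-HSC and 30.8, 22.3, 39.6 and 29.4 CPM in MUL-HSC. No restricted library reached down to the MUL-HSC values. Log2 fold changes against MUL-HSC were 0.88 ± 0.16 for PLT-HSC and 0.72 ± 0.14 for PEM-HSC, both past the threshold. The PLT-HSC call held in all 21 alternative fits that were run, and the PEM-HSC call in 16.

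The 3 other calls lay close together in the later part of the window and passed for PLT-HSC against MUL-HSC and not for PEM-HSC against MUL-HSC. P24 (191683998 to 191685564) had 39.1, 32.2 and 27.0 CPM in PLT-HSC, 20.6 to 29.98 CPM (median 22.6) in PEM-HSC and 12.2, 19.8, 19.6 and 23.3 CPM in MUL-HSC. P25 (191690619 to 191691811) had 33.2, 35.0 and 27.7 CPM in PLT-HSC, 19.7 to 24.5 CPM (median 23.8) in PEM-HSC and 16.7, 13.2, 25.1 and 19.8 CPM in MUL-HSC. In both regions PLT-HSC stood above all MUL-HSC libraries while PEM-HSC overlapped them, and in P25 it also stood above all PEM-HSC libraries, as PLT-HSC did in 1.32% of tested regions.

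P26 (191691877 to 191692287), directly after P25, had 9.76, 7.94 and 4.29 CPM in PLT-HSC, 3.80 to 6.26 CPM (median 5.12) in PEM-HSC and 1.93, 2.48, 4.01 and 1.91 CPM in MUL-HSC. For P24, P25 and P26 in turn, the log2 fold change against MUL-HSC was 0.78 ± 0.20, 0.73 ± 0.18 and 1.48 ± 0.40 in PLT-HSC, and 0.38 ± 0.18, 0.27 ± 0.17 and 0.97 ± 0.37 in PEM-HSC. The direct contrast of PLT-HSC with PEM-HSC gave 0.40 ± 0.17, 0.45 ± 0.16 and 0.51 ± 0.31, none past the threshold. The PLT-HSC calls against MUL-HSC held in 13, 13 and 10 of the 21 alternative fits. By these contrasts a difference between the restricted groups was not shown.

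**Figure D4:**
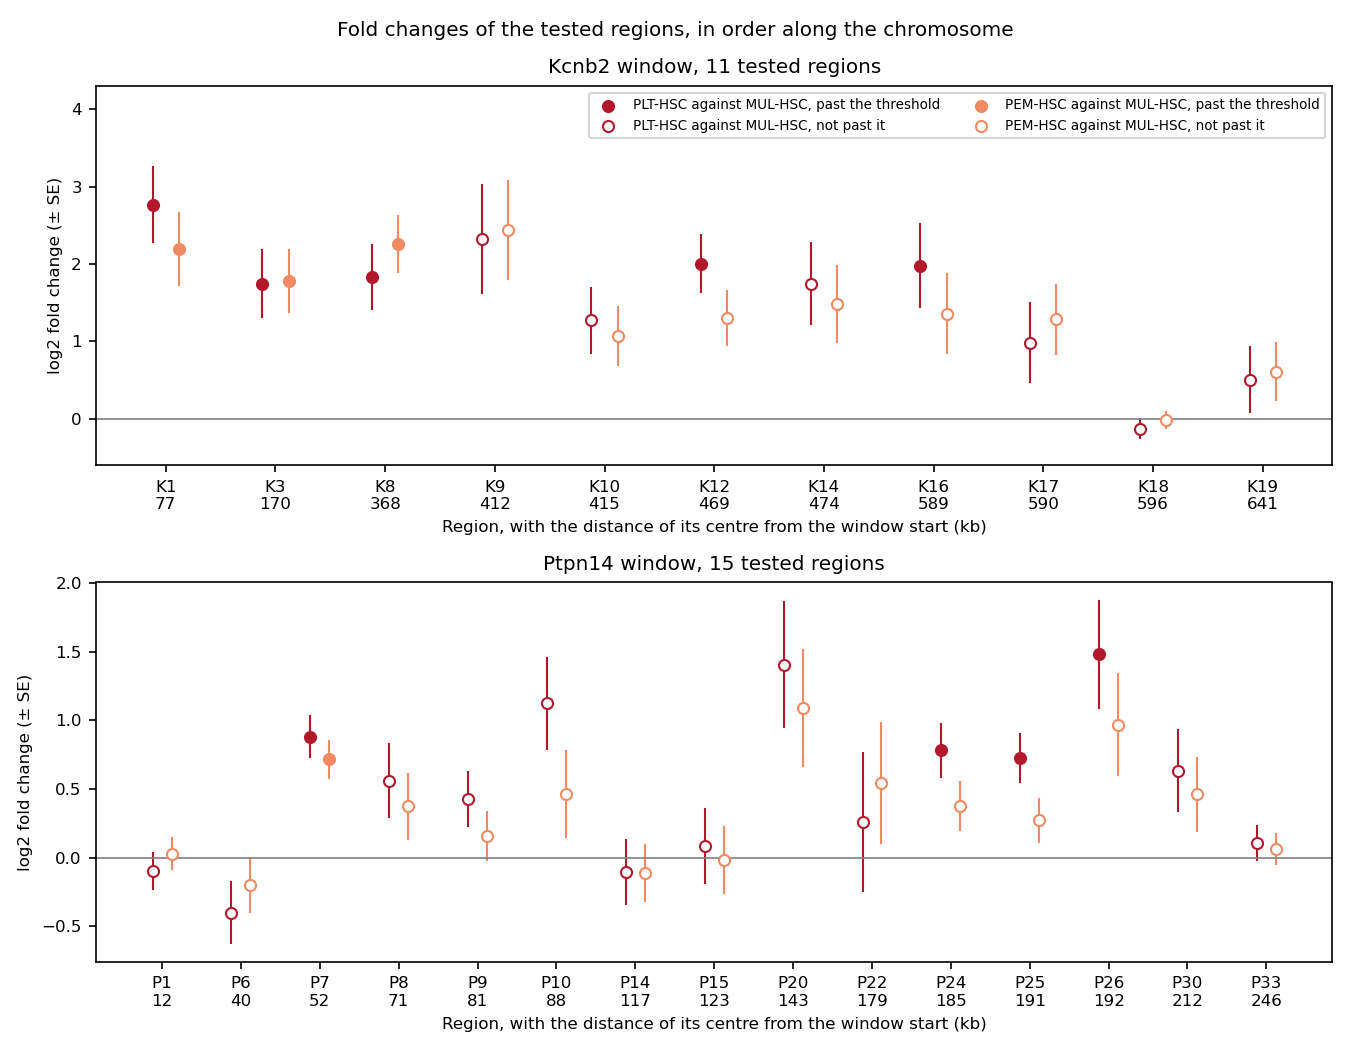
Log2 fold change ± SE of the tested regions along each window, for PLT-HSC against MUL-HSC and PEM-HSC against MUL-HSC; filled points passed the threshold. In the Kcnb2 window 10 of 11 regions lie above 0 in both comparisons and K18 does not; in the Ptpn14 window P1, P6 and P14 lie at or below 0.03.

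The strong members at both ends of the Ptpn14 window had log2 fold changes within their errors of 0. P1 (191511650 to 191512546), the strongest with 65.6 CPM per kb, had 43.0, 57.5 and 66.3 CPM in PLT-HSC, 47.6 to 71.7 CPM (median 60.0) in PEM-HSC and 55.2, 58.7, 60.2 and 62.1 CPM in MUL-HSC. P33 (191745315 to 191746599) had 42.0, 44.4 and 46.5 CPM in PLT-HSC, 34.4 to 48.9 CPM (median 43.6) in PEM-HSC and 44.3, 38.9, 38.1 and 42.7 CPM in MUL-HSC. All 3 groups overlapped in both. Their log2 fold changes were -0.10 ± 0.14 and 0.11 ± 0.13 for PLT-HSC, and 0.03 ± 0.12 and 0.06 ± 0.12 for PEM-HSC, against MUL-HSC. P6 had -0.40 ± 0.23 for PLT-HSC and -0.20 ± 0.20 for PEM-HSC, the lowest of the 15 tested regions.

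Of the tested Ptpn14 regions between, P10 and P20 had log2 fold changes of 1.12 ± 0.34 and 1.40 ± 0.46 for PLT-HSC, which did not pass although all 3 PLT-HSC libraries exceeded all MUL-HSC libraries. P8, P9 and P30 had 0.56 ± 0.27, 0.43 ± 0.20 and 0.63 ± 0.30 for PLT-HSC. P14, P15 and P22 had -0.10 ± 0.24, 0.09 ± 0.28 and 0.26 ± 0.51. The 18 untested Ptpn14 members held 23 to 91 counts each. Among them P13 had 7 counts in PLT-HSC, 25 in PEM-HSC and 1 in MUL-HSC, and P18 had 19, 23 and 3. These 2 had the largest depth-corrected ratios of PLT-HSC to MUL-HSC of the untested Ptpn14 members. They were 6.27 (95% counting interval 0.81 to 283) in P13 and 5.67 (1.67 to 29.9) in P18. The P13 interval spans 1, PLT-HSC replicate 3 had no count in P13, and both intervals cover counting error only. The ratio of PLT-HSC to MUL-HSC was below 1 in P2 (0.65), P4 (0.90), P12 (0.75) and P17 (0.90), and above 1 in all other untested Ptpn14 members.

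No member passed between PLT-HSC and PEM-HSC. The edgeR test called 0 of 11 and 0 of 15 members, where 0% of all tested regions were called higher and 0.00168% lower. At an unadjusted p under 0.05, 1 Kcnb2 member (K12) and 3 Ptpn14 members (P10, P24 and P25) passed, where 4.61% of all tested regions did, and DESeq2 called 0 in both windows. Log2 fold changes ranged from -0.42 to 0.70 in the Kcnb2 window and from -0.28 to 0.66 in the Ptpn14 window.

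The windows differ in how densely regions lie and how wide these are. The Kcnb2 window held 29.2 regions per Mb and the Ptpn14 window 132. Called members were wider than the others: in the Kcnb2 window their median width was 616 bp against 331 bp, and in the Ptpn14 window 1379 bp against 448 bp, with 417 bp over all regions. Wider regions also collect more counts, whose part in the calls was not tested. The split into called and other members rests on the counts themselves, and the others include the regions too weak to test. Per kb, called members had a median of 10.7 CPM in the Kcnb2 window and 17.8 in the Ptpn14 window, against 6.89 and 7.14 in the others and 7.96 over all regions.

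At the window ends the nearest region outside differed in level from its neighbour inside. The last region before the Kcnb2 window (15073729 to 15074113) had 1.37 ± 1.28 CPM in PLT-HSC, 1.67 ± 1.83 CPM in PEM-HSC and 1.97 ± 1.09 CPM in MUL-HSC, where K1 just inside had 25.2 ± 6.90, 17.0 ± 6.46 and 3.33 ± 2.93 CPM (SD). K19, the last inside, had 8.75 ± 5.45, 9.07 ± 2.99 and 5.57 ± 2.81 CPM, and the first after the window (15852435 to 15852651) had 0.748 ± 0.161, 1.04 ± 0.847 and 1.65 ± 0.194 CPM, in the same order of groups. The last region before the Ptpn14 window (191499344 to 191499727) had 1.81 ± 0.862, 2.26 ± 0.719 and 2.44 ± 0.852 CPM, beside P1. The first after it (191751540 to 191752080), beside P33, had 7.998 ± 2.91, 9.80 ± 2.14 and 6.58 ± 3.50 CPM.

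The outer flanks show how the same chromosome behaved beyond the windows. The 37 regions flanking the Kcnb2 window summed to 252 ± 18.9 CPM in PLT-HSC, 247 ± 17.5 CPM in PEM-HSC and 222 ± 23.3 CPM in MUL-HSC (SD). Log2 differences from MUL-HSC were 0.19 ± 0.10 for PLT-HSC (exact two-sided permutation p = 0.171) and 0.16 ± 0.09 for PEM-HSC (exact permutation p = 0.0667). The flank before the window, 14 regions, had 61.6 ± 7.16 CPM in PLT-HSC, 59.5 ± 6.48 CPM in PEM-HSC and 62.9 ± 9.39 CPM in MUL-HSC. The flank after it, 23 regions, had 190.1 ± 14.7, 187 ± 15.8 and 159 ± 21.6 CPM in the same order. Its log2 differences from MUL-HSC were 0.27 ± 0.12 for PLT-HSC and 0.24 ± 0.11 for PEM-HSC (SE), with overlapping libraries. Those of the flank before the window were -0.03 ± 0.14 and -0.08 ± 0.12. The 2 flanks were not tested separately.

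The 20 regions flanking the Ptpn14 window summed to 134 ± 3.47 CPM in PLT-HSC, 127 ± 13.4 CPM in PEM-HSC and 117 ± 23.6 CPM in MUL-HSC (SD). Log2 differences from MUL-HSC were 0.22 ± 0.14 for PLT-HSC (exact permutation p = 0.229) and 0.13 ± 0.15 for PEM-HSC (exact permutation p = 0.352). PLT-HSC against PEM-HSC gave 0.03 ± 0.07 and 0.09 ± 0.06 for the Kcnb2 and Ptpn14 flanks (exact permutation p = 0.738 and 0.357). After Benjamini-Hochberg adjustment over the 6 tests every p was at least 0.400, where the smallest unadjusted p the designs allow is 0.0286, 0.00476 and 0.0119 for PLT-HSC against MUL-HSC, PEM-HSC against MUL-HSC and PLT-HSC against PEM-HSC.

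Divided by the flank counts of the same library, the Kcnb2 window kept its order. The ratio was 0.572 to 0.735 in PLT-HSC and 0.522 to 0.705 in PEM-HSC, against 0.322 to 0.487 in MUL-HSC, without overlap with MUL-HSC. For the Ptpn14 window it was 2.93 to 2.99 in PLT-HSC and 2.497 to 3.37 in PEM-HSC, against 2.12 to 2.91 in MUL-HSC, so PEM-HSC overlapped MUL-HSC. The log2 difference of this ratio from MUL-HSC was 0.20 for PLT-HSC and 0.15 for PEM-HSC, where the undivided Ptpn14 sums gave 0.42 and 0.28.

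Libraries of PEM-HSC alone, the only group with 6, allow the 2 windows to be related within a group. Their log2 sums had Pearson's r = 0.59 (exact permutation p = 0.236) and Spearman's rho = 0.77 (exact permutation p = 0.103), and r = 0.60 without PEM-HSC replicates 4 and 5, the farthest from the median of the Kcnb2 sum. Relative to their flanks r was 0.76 (exact permutation p = 0.0861), and 0.46 without replicates 1 and 5. With the library total, r was 0.11 for the Kcnb2 sum (exact permutation p = 0.822) and 0.44 for the Ptpn14 sum (exact permutation p = 0.381). Adjusted over these 4 relations the smallest p was 0.344, so no relation was shown.

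Regions elsewhere whose level followed a window most closely over the 13 libraries were sought among 59361 tested regions, as a description that includes the group difference. The closest to Kcnb2 was a region of chromosome 13 (115166665 to 115167232, Pearson's r = 0.97). It was followed by 4 regions with r = 0.96, of which 2 were on chromosome 15 (77241232 to 77241924, and 81165385 to 81166025), 1 on chromosome 19 (35528289 to 35528880) and 1 on chromosome 1 (164364537 to 164365394). The closest to Ptpn14 was a region of chromosome 9 (57112976 to 57113305, r = 0.995). Next came chromosome 16 at 23842763 to 23843326 and chromosome 2 at 137017680 to 137018448 (both r = 0.97), then the second of the chromosome 15 regions above and chromosome 16 at 41532953 to 41533721 (both r = 0.96). The chromosome 9 region had 11.3 ± 2.42 CPM in PLT-HSC, 7.13 ± 2.63 CPM in PEM-HSC and 1.69 ± 1.15 CPM in MUL-HSC (SD). The region shared by both lists had 9.97 ± 3.23, 5.47 ± 1.67 and 0.662 ± 0.779 CPM in the same order.

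Single libraries moved the numbers of calls, in the windows and over all tested regions. With all 13 libraries, 672 of 59408 were called higher for PLT-HSC against MUL-HSC and 144 for PEM-HSC against MUL-HSC. These numbers were 215, 279 and 228 for PLT-HSC and 19, 19 and 12 for PEM-HSC without MUL-HSC replicate 1, 2 or 4. The PLT-HSC number was 205, 221 and 1027 without PLT-HSC replicate 1, 2 or 3. The PEM-HSC number was 54 and 40 without PEM-HSC replicate 1 or 5. These fits tested 56917 to 63585 regions. Without MUL-HSC replicate 1, 2 or 4, the Kcnb2 window had 2, 2 and 1 calls for PLT-HSC against MUL-HSC and 1 each for PEM-HSC against MUL-HSC, and the Ptpn14 window had 1, 1 and 2 and 0 each. Without PLT-HSC replicate 1 or 2 the PLT-HSC calls were 2 in the Kcnb2 window and 1 in the Ptpn14 window, and 8 in the Kcnb2 window without PLT-HSC replicate 3. The PEM-HSC calls in the Kcnb2 window were 1 without PEM-HSC replicate 1 or 5 and 5 without MUL-HSC replicate 3. Without MUL-HSC replicate 3 the PLT-HSC calls again numbered 5 and 4, but 1 called region was lost and another entered. Over all 60251 tested regions the higher calls rose to 1034 for PLT-HSC and 469 for PEM-HSC. The log2 differences of the sums from MUL-HSC were then 1.003 and 0.45 for PLT-HSC and 0.87 and 0.32 for PEM-HSC, Kcnb2 first.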

How the data were processed

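Omni-ATAC-seq libraries (transposase-accessible chromatin, Nextera kit, per the labels' protocols) were counted over regions, and the deposited table holds 1 raw count per region and library, not normalized. The submitters' processing notes name Trim Galore, FastQC, Bowtie2, SAMtools, Picard, MACS2 and mm9; versions, cut-site shifting, how the regions were merged and whether starts count from 0 or 1 were not stated in those notes or the labels. The members, windows and lists were chosen with earlier results of these data known. Library totals and the sources of precision stand in the report.

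Counts of all 13 libraries were fitted together with edgeR 4.0.16 (R 4.3.3; filterByExpr, TMM, robust quasi-likelihood test, Benjamini-Hochberg adjustment, threshold 0.05). The filter left 59408 of 115295 regions, holding 91.44% of counts; the fit's biological coefficient of variation was 15.56%. Standard errors of fold changes come from that fit; those of summed levels come from the spread of libraries on the log2 scale. CPM used all members, tested or not. Flanks as wide as the window were taken on each side and compared with exact two-sided permutation tests over libraries. The fit was tested on simulated data. All pairs of libraries within a group differed by more than sampling noise (chi-square per degree of freedom 1.45 to 2.46). None was therefore taken for a repeat count of another, and each entered as 1 sample. Such differences cannot show whether the libraries came from separate recipients. Regions given in full were, per window, those past the threshold (at most 6), the strongest, and those at the window ends; other members named as examples were chosen after their values were seen. DESeq2 1.42.0 and the other alternatives are in the closing section. Marker and pathway lists need an mm9 annotation and were not used here.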

Additional observations from a re-analysis of the deposited data

How the results depend on the processing

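For PLT-HSC against MUL-HSC, the 5 Kcnb2 and 4 Ptpn14 calls became 3 and 2 with DESeq2, 3 and 1 with every library thinned to the smallest total, and 1 and 1 without libraries under 2000000 counts; a mean of at least 20 counts gave 2 Kcnb2 calls, and leaving out 1 library gave 1 to 8 and 1 to 4. For PEM-HSC against MUL-HSC, the 3 Kcnb2 calls and 1 Ptpn14 call became 0 and 0 without those shallow libraries, 1 Kcnb2 call when thinned and 0 Kcnb2 calls at a mean of at least 20 counts, and 1 to 5 and 0 to 1 on leaving out 1 library. The last filter and thinning test fewer regions, and the shallow-library setting has fewer samples. Among regions still tested, thinning lost 3 calls for PLT-HSC and 1 for PEM-HSC, and that filter lost 1 for PEM-HSC. In these settings and for DESeq2 the cause was not tested. With the replicate block, PLT-HSC had 0 Kcnb2 and 2 Ptpn14 calls and PEM-HSC had 1 and 0, against MUL-HSC. Over all tested regions, 672 were called higher for PLT-HSC and 144 for PEM-HSC in the fit used above. PLT-HSC had 507 with DESeq2, 308 when thinned, 89 without shallow libraries, 260 at that mean of counts and 287 with the block. PEM-HSC had 141, 106, 1, 60 and 25 in the same order. These fits tested 59408, 39215, 68564, 29891 and 59408 regions. Leaving out 1 library gave 205 to 1034 and 12 to 469. Same-numbered libraries did not deviate together (10 pairs, correlations of -0.136 to 0.0992, no library with a same-numbered partner being closest to it). Different-numbered pairs ranged from -0.160 to 0.215. No pairing by number was seen, though the 10 pairs are too few to exclude one.

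The log2 difference of the summed Kcnb2 level from MUL-HSC was 1.90 for PLT-HSC and 1.65 for PEM-HSC without its strongest region, and 0.76 to 1.04 and 0.69 to 0.87 on leaving out 1 library. In the same order of groups it was 0.70 and 0.63 without shallow libraries, and 0.73 and 0.62 divided by the flanks. For Ptpn14, PLT-HSC against MUL-HSC gave 0.52 without the strongest region, 0.31 without shallow libraries and 0.20 divided by the flanks, where PEM-HSC against MUL-HSC gave 0.15 and PLT-HSC against PEM-HSC 0.0489. Some flank differences changed sign, with adjusted exact permutation p of at least 0.8: -0.0877 for Ptpn14, PEM-HSC against MUL-HSC, without shallow libraries, and -0.0187 for Kcnb2 and -0.0195 for Ptpn14, PLT-HSC against PEM-HSC, with narrower flanks; the Kcnb2 flanks also ranged from -0.0336 to 0.0604 in that comparison on leaving out 1 library, below 0 without PLT-HSC replicate 2 or PEM-HSC replicate 4. The cause was not tested. With 87 to 244 counts over the Kcnb2 window in MUL-HSC libraries, depth limits what the weak regions can show.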
